A study of Mus musculus with 2 samples.

Results

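The miR-378 family is the set of 4 mouse miRNA genes Mir378a, Mir378b, Mir378c and Mir378d. They were found among 2202 miRNA gene rows by matching each Ensembl identifier to its GENCODE M21 symbol. The study measured small RNA in the gastrocnemius, a calf muscle, of male B6CASTF1/J mice aged 25 days. B6CASTF1/J mice are first-generation hybrids of a laboratory strain and the CAST strain, and no treatment or genotype was compared. The data hold 1 group of 2 libraries, numbered by the labels as biological replicates 1 and 2. The labels give the animals separate names but a shared donor identifier, so each SD here may measure technical spread.

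MicroRNAs are cut from a hairpin-shaped precursor and guide silencing complexes to messenger RNAs that pair with their seed, the bases near the 5′ end. The miR-378 gene Mir378a is embedded in Ppargc1b, which encodes PGC-1β, a coactivator of genes for mitochondrial respiration and fatty acid oxidation. In mice, miR-378 has been studied as a regulator of energy metabolism in skeletal muscle, heart, liver and brown fat. The other genes were named for their likeness in sequence, and little is known of their roles.

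The mature sequences are shown because they differ in few bases. The RefSeq miRNA table for GRCm38.p6, the assembly also called mm10, held 3 of the 4 genes; Mir378a had no entry there. Capitals mark the seed, bases 2 to 8 from the 5′ end.
Mir378b: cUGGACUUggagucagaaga
Mir378c: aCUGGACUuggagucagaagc
Mir378d: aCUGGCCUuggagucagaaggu

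Each of these mature miRNAs had a seed of its own, and no other of the 1738 in the table shared any of the seeds. Mir378a is not in the table, so its seed could not be compared. The seed of Mir378c lies within a stretch of 20 bases that its precursor shares with that of Mir378a. All bases of that seed are thus also present in the Mir378a hairpin. Mir378b starts 1 base further along than Mir378c, so its seed window is shifted by 1 base although the aligned letters there are the same. With positions counted from the 5′ end of the gene named first, Mir378b and Mir378c differed over 20 aligned bases by A20C alone. Mir378c and Mir378d differed by A6C, which lies in the seed, and by C21G. Mir378b and Mir378d differed by A5C and A20G.

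The precursors show where that sequence sits in each gene. Capitals mark the annotated mature miRNA.
Mir378b (chr11:88352773-88352864, plus strand): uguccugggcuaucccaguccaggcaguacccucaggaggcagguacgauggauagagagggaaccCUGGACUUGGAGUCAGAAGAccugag
Mir378c (chr14:46954830-46954928, minus strand): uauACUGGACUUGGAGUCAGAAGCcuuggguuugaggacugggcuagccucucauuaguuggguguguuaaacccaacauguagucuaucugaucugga
Mir378d (chr10:126710282-126710391, minus strand): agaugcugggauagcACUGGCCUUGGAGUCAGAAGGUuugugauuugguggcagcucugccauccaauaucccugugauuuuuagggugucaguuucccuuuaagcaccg

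The mature miRNA lay at the 3′ side of the hairpin in Mir378b (bases 67 to 86 of 92). It lay at the 5′ side in Mir378c (bases 4 to 24 of 99) and in Mir378d (bases 16 to 37 of 110). The longest stretch present in all 4 hairpins was 14 bases long and formed bases 6 to 19 of the mature Mir378b and bases 7 to 20 of the mature Mir378c and Mir378d. In the Mir378a hairpin, which is the shortest at 66 bases, this stretch filled bases 49 to 62, again at the 3′ side. Mir378a and Mir378b thus carry the sequence on the same side, and Mir378c and Mir378d on the other.

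**Figure D1:**
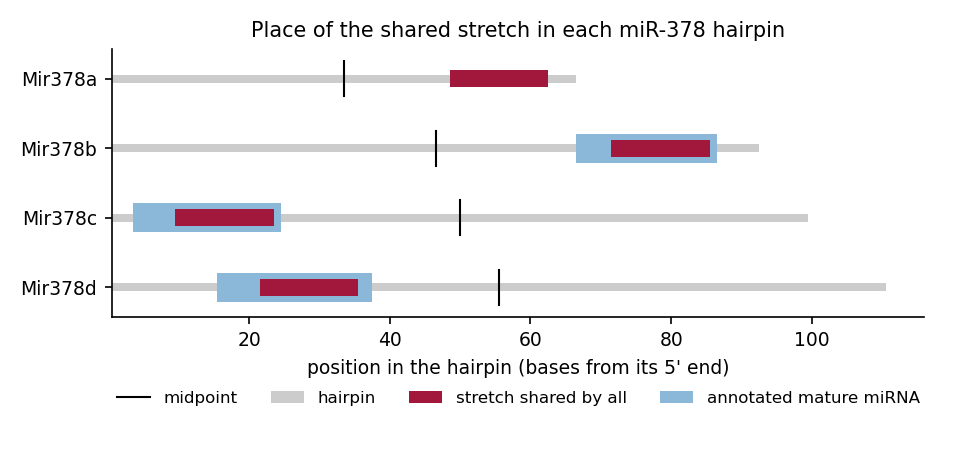
Position, in bases from the 5′ end, of the 14-base stretch shared by all 4 hairpins (dark red) and of the annotated mature miRNA (blue, for the 3 genes with an entry) along each precursor (grey), with the midpoint as a black line. The shared stretch lies after the midpoint in Mir378a and Mir378b and before it in Mir378c and Mir378d.

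Among the hairpins of all 2202 gene rows, the 14-base stretch occurred on the same strand in 1 gene beyond the family, Gm27881 (chr1:13262198-13262279, plus strand), which lies within Ncoa2 on the strand opposite to it. Gm27881 was found by this search, after the counts were known. It had 5 counts in replicate 1 and 10 in replicate 2, or 4.14 ± 1.12 CPM (SD, n = 2), lower than any member in both libraries. CPM is a gene's counts per 1000000 gene counts of its library. Because a small RNA read spans the mature miRNA, counts were compared between genes without division by hairpin length.

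Among the members, Mir378a had the lowest energy in minimum-energy folds computed with RNAfold, most clearly per base. Its fold had -38.5 kcal/mol, or -0.58 per base, and only 4.31% of the 2202 hairpins were more stable per base. Total energies of the other folds were -31.1 kcal/mol for Mir378b, -27 for Mir378c and -35 for Mir378d. Values per base depend on the annotated length, which was 66 bases for Mir378a and 92 to 110 for the others. The values per base were -0.34 for Mir378b, -0.27 for Mir378c and -0.32 for Mir378d, beside a median of -0.37 over all hairpins and -0.43 over the 267 with at least 10 counts in each library. Of the 14 shared bases, 13 were paired in the Mir378a fold, 9 in Mir378b, 9 in Mir378c and 6 in Mir378d. The Mir378d fold was branched, with 3 terminal loops, where the other members had 1. These are predictions from sequence, and their part in the counts was not tested.

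The members lie on separate chromosomes. Mir378a (chromosome 18, 61397835 to 61397900, minus strand) is in the first intron of all 3 Ppargc1b transcripts that hold it, on the strand of Ppargc1b and 2500 or 2531 bases after the transcript start. Mir378b is in intron 11 of Msi2, which encodes an RNA-binding protein, and Mir378c is in an intron of Samd4, which encodes a regulator of translation. Both are on the strand opposite to that gene. Mir378d is in no annotated gene; the nearest protein-coding gene, Atp23, is 158036 bases away. Mir378a is therefore the only member with a host gene on its own strand.

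Mir378a held nearly all reads of the family. It had 223560 counts in replicate 1 and 282263 in replicate 2, which came to 149905 CPM (exact 95% interval 149333 to 150479) and 139160 CPM (138684 to 139637). The mean was 144533 ± 7598 CPM (SD, n = 2). The intervals, which cover counting error only, do not overlap. Mir378a thus took a larger share of replicate 1, by an amount small beside its level.

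Mir378c had 121 and 153 counts, or 81.1 CPM (67.3 to 96.9) in replicate 1 and 75.4 CPM (64.0 to 88.4) in replicate 2, with a mean of 78.3 ± 4.03 CPM. Mir378d had 110 and 119 counts, or 73.8 CPM (60.6 to 88.9) and 58.7 CPM (48.6 to 70.2), with a mean of 66.2 ± 10.7 CPM. Mir378b had 21 and 33 counts, or 14.1 CPM (8.72 to 21.5) and 16.3 CPM (11.2 to 22.8), with a mean of 15.2 ± 1.55 CPM. For each of these members the intervals of the libraries overlap. All were above the limit that a count of 0 allows, which is 3 counts, or 2.01 CPM in replicate 1 and 1.48 CPM in replicate 2.

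**Figure D2:**
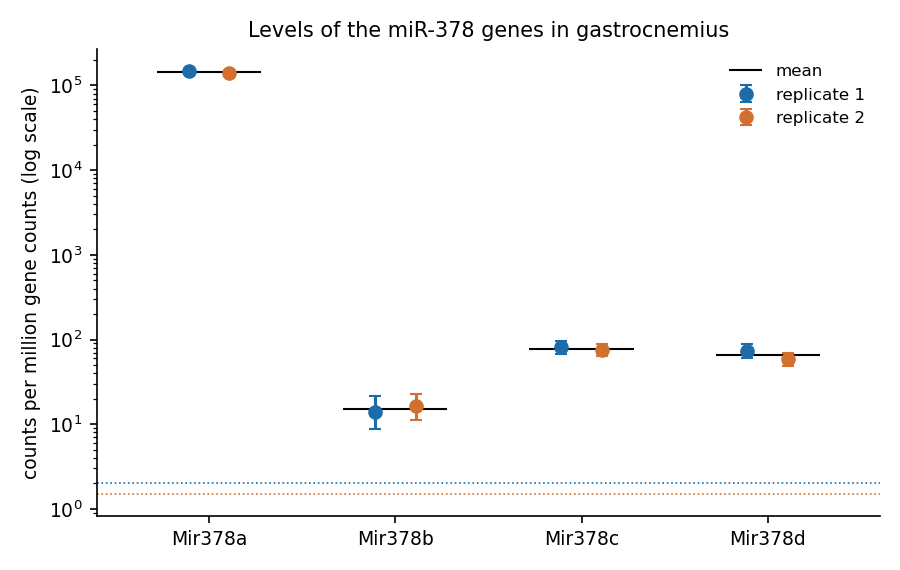
Level of each member in replicate 1 (blue) and replicate 2 (orange), in CPM on a log scale. Bars are exact 95% counting intervals, black lines are means of both libraries, and dotted lines are the levels of 3 counts. Mir378a lies near 144533 CPM and the other members lie between 14.1 and 81.1 CPM.

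The order of the members was Mir378a, Mir378c, Mir378d and Mir378b in both libraries. Among reads placed at 1 locus, Mir378a exceeded Mir378c by 1848 times in replicate 1 and 1845 times in replicate 2, a mean log2 ratio of 10.85 ± 0.0015. The exact 95% intervals of this log2 ratio were far wider than that SD, at 10.59 to 11.12 in replicate 1 and 10.62 to 11.09 in replicate 2. The excess of Mir378a over Mir378d was 11.10 ± 0.16 and over Mir378b 13.22 ± 0.22 on the same scale. Mir378c and Mir378d are neighbours whose order is not firm: their log2 ratio was 0.14 in replicate 1 (exact 95% interval -0.25 to 0.52) and 0.36 in replicate 2 (0.01 to 0.72), so that in replicate 1 they did not differ beyond counting error. Mir378b was below Mir378d by a log2 ratio of -2.39 (-3.14 to -1.71) in replicate 1 and -1.85 (-2.45 to -1.28) in replicate 2, beyond counting error in both.

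The family as a whole had 223812 counts in replicate 1 and 282568 in replicate 2. These made up 15.0% of gene counts (14.95 to 15.06) and 13.9% (13.88 to 13.98). Mir378a held 99.887% of the family counts in replicate 1 (exact 95% interval 99.873 to 99.901) and 99.892% in replicate 2 (99.879 to 99.904). The other members together had 252 and 305 counts, 0.110 ± 0.00329% of the family. The division of the family between Mir378a and the rest thus differed between the libraries by less than the counting error.

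Mir378a had the highest CPM of all gene rows in both libraries, counting only reads placed at 1 locus. Genes whose reads fit at several loci can be ranked too low here. The next was Mir126a, an endothelial miRNA gene, with 78275 CPM in replicate 1 and 87525 in replicate 2. Mir378a was 1.92 times as high in replicate 1 and 1.59 times in replicate 2, and the ranges of these genes do not overlap. Mir23b, which derives from a cluster expressed in many tissues, and Mir143, which marks smooth muscle, followed. The level of Mir378a was 2.30 and 2.14 times that of Mir23b, and 2.72 and 1.90 times that of Mir143, in replicates 1 and 2.

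The other members lay far down the same order, at mean ranks of 171 for Mir378c, 181 for Mir378d and 238 for Mir378b. Each of their neighbours in rank overlapped them in its range over the libraries. Mir378c lay between Mir1843b (78.7 ± 10.1 CPM) and Mir30c-1 (73.4 ± 4.25 CPM). Mir378d lay between Mir26a-2 (68.6 ± 27.3 CPM) and Mir188 (64.8 ± 7.95 CPM), and Mir378b between Mir669l (15.2 ± 3.54 CPM) and Gm49347 (14.1 ± 6.61 CPM). Among the 267 gene rows with at least 10 counts in each library, which include all 4 members, the median was 165 CPM, so these 3 members were below it and Mir378a far above it. Of the other rows, 1632 had no count in either library.

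**Figure D3:**
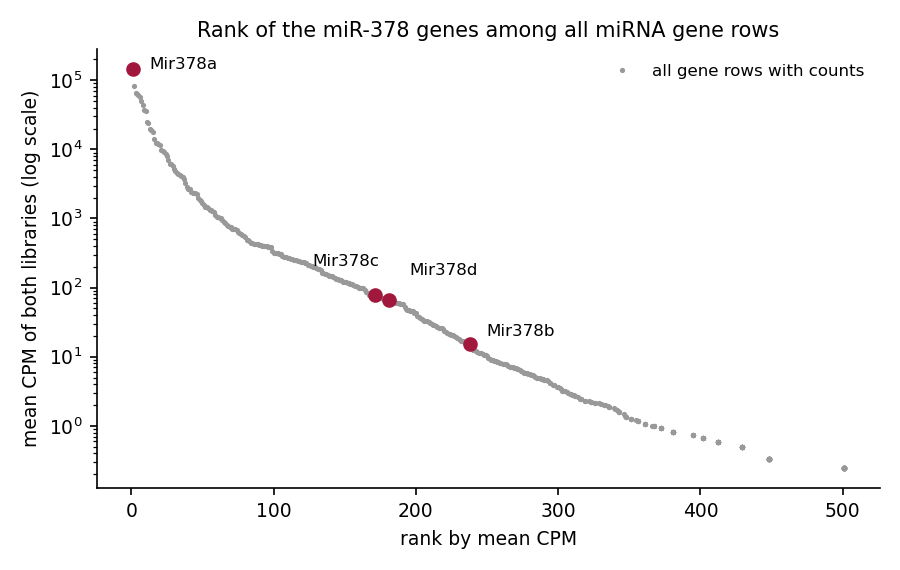
Mean CPM of both libraries (log scale) against rank, for all gene rows with a count (grey) and the miR-378 genes (red). Mir378a stands first, and Mir378c, Mir378d and Mir378b stand at ranks 171, 181 and 238.

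These levels rest on reads placed at 1 locus. Gene totals on the strand of the gene were 1491341 in replicate 1 and 2028332 in replicate 2, while 69.8% and 71.8% of all reads fitted at more than 1 locus and are in no gene row. Taken over all reads, Mir378a had 2.98% and 2.87%. The longest stretch shared between hairpins was 20 bases for Mir378a and Mir378c, 19 for Mir378a and Mir378b and 15 for Mir378a and Mir378d. It covered 20 of the 21 mature bases of Mir378c and 19 of the 20 of Mir378b. A read that holds nothing beyond such a stretch fits at both genes and would be counted at neither, and how many such reads there were was not tested. Whether reads of Mir378a with a changed base were placed at Mir378b, Mir378c or Mir378d was not tested either. The unbroken stretch that Mir378d shares with Mir378a is shorter. Over 21 aligned bases, however, the mature sequence of Mir378d differs from that of Mir378c by A6C and C21G alone. The counts of Mir378b, Mir378c and Mir378d are for these reasons uncertain, and so is their order.

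Mir378a has an annotated partner on the opposite strand. The miRNA gene Gm25301 (chromosome 18, 61397813 to 61397925, plus strand) covers the whole Mir378a hairpin and extends beyond it on both sides. The files give each gene a count on its own strand, on the opposite strand and without regard to strand. In the first of these Mir378a had 223560 and 282263 counts, and in the second it had 0 in both libraries, which allows up to 3 counts, or 0.00134% and 0.00106% of its gene-strand counts. Gm25301 mirrored this, with 0 counts on its own strand and exactly 223560 and 282263 on the opposite strand. All reads counted at the locus were therefore on the strand of Mir378a and Ppargc1b, and none was placed in the flanks of Gm25301 alone.

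In the column without regard to strand Mir378a had 0 counts in both libraries, since a read that overlaps genes on both strands is set aside there as ambiguous. The Mir378a reads were 59.2% of the 377691 ambiguous reads of replicate 1 and 55.2% of the 511221 of replicate 2. Mir378b, Mir378c and Mir378d overlap no other miRNA gene. They had 0 counts on the opposite strand and equal counts with and without strand in both libraries.

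**Figure D4:**
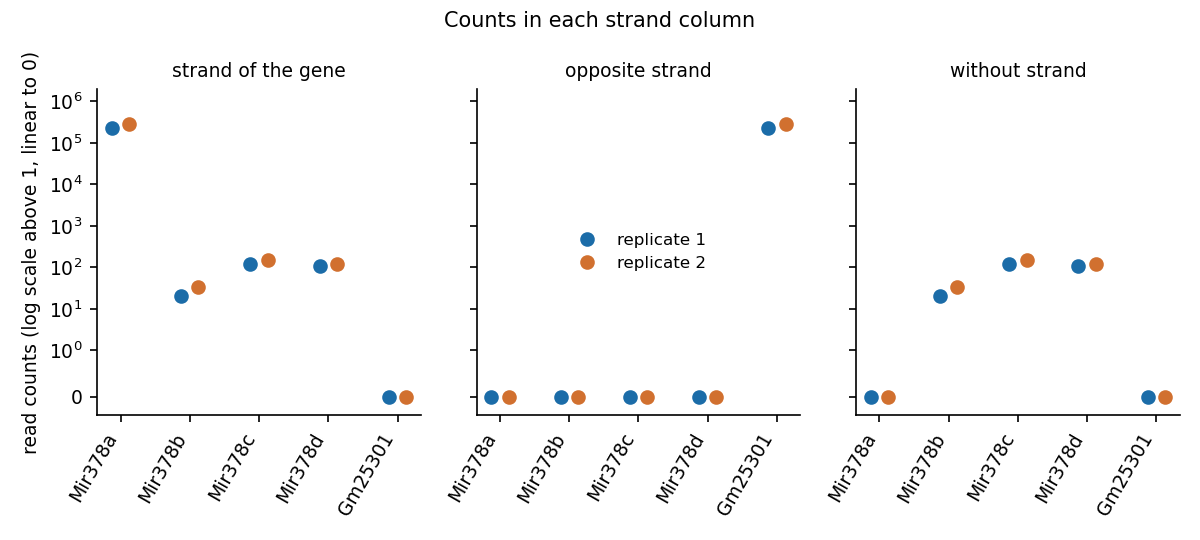
Read counts of the miR-378 genes and of Gm25301 in replicate 1 (blue) and replicate 2 (orange), in the columns for the strand of the gene, the opposite strand and without strand. The axis is logarithmic above 1 and linear down to 0. Mir378a and Gm25301 exchange their counts between the first and second panels and are both at 0 in the third.

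The loss of Mir378a without strand was shared by every gene in the same position. Opposite-strand overlap with another miRNA gene was found for 64 gene rows, of which 23 had at least 10 counts in each library. All 23 kept under 1% of their counts in the column without strand. That is 8.61% of the 267 rows with such depth, and none of the remaining 244 lost counts this way. After Mir378a the highest of these were Mir126a with partner Mir126b (82900 ± 6540 CPM), Mir30e with Mir30f (8030 ± 1119 CPM) and Mir191 with Gm24083 (6214 ± 1045 CPM). Mir126a kept 0 and 1 count and the others 0. In these 3 pairs the partner had at most 1 count on its own strand. This did not hold for all overlapping genes: Mir3107, the partner of Mir486, which was singled out after its values were seen, had 43 and 25 counts on its own strand.

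Between the libraries, Mir378a was lower in replicate 2 and the other members did not pass the test. The test was an exact binomial test per gene with Benjamini-Hochberg adjustment over 313 genes, and it compares these libraries with counting error only. Of the 4 members 1 was lower and 0 were higher, while over all tested genes 18.5% were lower, 19.8% were higher and 38.3% passed in either direction. The median log2 ratio of replicate 2 over replicate 1 was 0.05 over all genes. A family with 1 of 4 members past the threshold is thus near that background.

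The log2 ratio of Mir378a was -0.10 (exact 95% interval -0.10 to -0.09, binomial adjusted p = 1.40e-122), a level 0.935 times that of replicate 1. Its narrow interval reflects its depth. Mir378d had -0.32 (-0.71 to 0.07, exact binomial adjusted p = 0.181), Mir378c -0.09 (-0.45 to 0.26, adjusted p = 0.753) and Mir378b 0.22 (-0.61 to 1.08, adjusted p = 0.805). At these depths a change of the size seen in Mir378a was not detectable in the other members. When the spread between the libraries was added to counting error, the adjusted p of Mir378a was 1 (edgeR exact negative binomial test). That test called 0 of 313 genes, and before adjustment 15 had p under 0.05, with the spread (a biological coefficient of variation of 18.0%) taken from the same libraries.

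**Figure D5:**
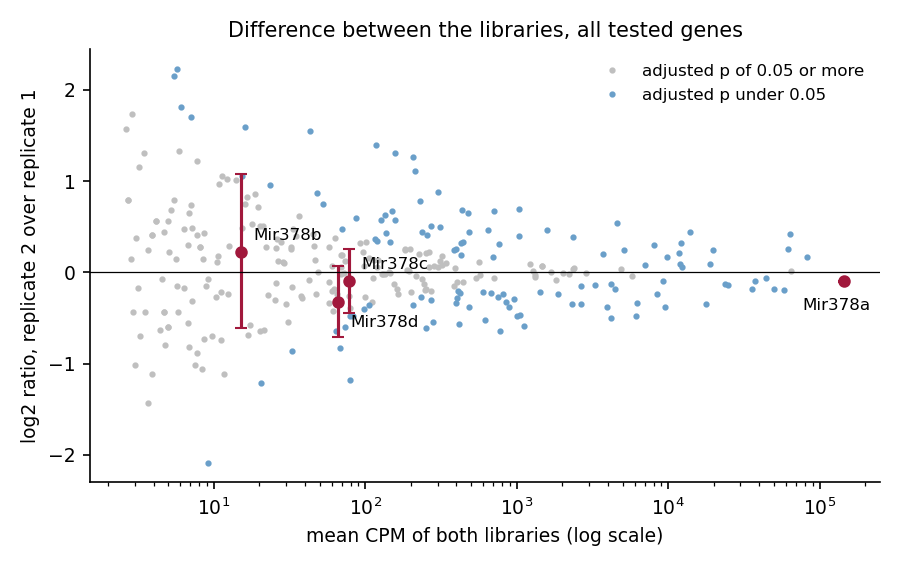
Log2 ratio of replicate 2 over replicate 1 against mean CPM (log scale) for the 313 tested genes, blue where the exact binomial adjusted p was under 0.05 and grey elsewhere. Red points are the miR-378 genes with exact 95% intervals, which include 0 for Mir378b, Mir378c and Mir378d and lie below 0 for Mir378a at -0.10.

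Mir378a was also set beside 35 miRNA genes tied to mitochondrial function and oxidative metabolism, of which 34 were measured and 33 had counts in both libraries. Together they held 24.4 ± 0.428% of gene counts, beside 14.5 ± 0.761% for the miR-378 family. In reads placed at 1 locus, all of the 34 were below Mir378a in mean level. The list holds genes with near-identical copies, such as Mir1a-1 and Mir1a-2, Mir133a-1 and Mir133a-2, or Mir26a-1 and Mir26a-2, and reads that fit at several copies are in no gene row, so the levels of these genes are uncertain. The highest were Mir23b (65130 ± 71.0 CPM) and Mir23a (61898 ± 7397 CPM), and then the muscle-specific Mir206 (49955 ± 4826 CPM), which Mir378a exceeded 2.89 times. Next came Mir26b (37560 ± 1844 CPM), Mir22 (13963 ± 2940 CPM), a gene abundant in striated muscle, and Mir27b (5119 ± 589 CPM).

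Of 29 tested genes of this list, 11 stood higher in replicate 2, 7 stood lower and 11 missed the threshold. Over all tested genes 19.8% were higher, 18.5% lower and 38.3% passed in either direction. The binomial test passes small ratios in genes of high counts, and the list was not matched to all genes for depth. The median log2 ratio was 0.18 for the list and 0.05 over all genes. The higher genes were Mir23a, Mir22, Mir27b, Mir27a, Mir107, Mir338, Mir181c, Mir193b, Mir204 and the slow myosin-gene miRNAs Mir499 and Mir208b. The lower genes were Mir206, Mir26b, Mir382, Mir149, Mir1a-2, Mir485 and Mir26a-2. Mir378a, at -0.10, was on the side of Mir206 (-0.19) and Mir26b (-0.09), whereas Mir22 had 0.44 and Mir23a 0.25. With the spread between the libraries added, 0 of the 29 passed (edgeR exact negative binomial test).

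Marker miRNAs of muscle and of the tissues in which miR-378 is also studied were measured in the same libraries. The striated muscle markers summed to 5.51% and 4.84% of gene counts, with counts for all 9 genes in both libraries, although Mir206 held most of them and Mir1a-1, Mir133a-1, Mir133a-2 and Mir133b, which are subject to the same limit on reads of several loci, had 43 counts or fewer each. The 6 markers of brown and beige fat summed to 0.204% and 0.187%, most of it from Mir196a-2 at 1415 ± 154 CPM, with Mir193b at 138 ± 28.6 CPM and Mir455 at 389 ± 7.21 CPM. This sum therefore rests mostly on a single gene, and Mir365-1 and Mir365-2, which share that limit on reads, had 2 or 5 counts in each library. The 4 liver markers summed to 0.00557% and 0.00513%, and the cardiac gene Mir208a had 5 and 9 counts. The endothelial marker Mir126a held 7.83% and 8.75%, and the smooth muscle and pericyte markers 5.89% and 7.87%. Every listed marker had counts in both libraries. The counts are of bulk tissue, so the cells that gave the Mir378a reads cannot be told apart.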

How the data were processed

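Small RNA libraries (labelled size range below 30) from the gastrocnemius of 2 samples of 1 group were analysed. The deposited files hold raw read counts per miRNA gene in 3 columns without a header, for mm10 with GENCODE M21, per the description deposited with them. By their values the first column was taken as counts without strand, the second gene-strand counts and the third opposite-strand counts. The aligner is not given in the sources used here. The 4 summary rows stayed out of totals and tests; reads of no feature made up 2.21% and 1.64% of all reads and unaligned reads 8.11% and 5.99%.

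The gene-strand column was used, and CPM were computed on its total. Because the design has 1 group, no quasi-likelihood contrast could be made. The libraries were compared per gene by an exact two-sided binomial test (scipy 1.17.1) with TMM effective library sizes (edgeR 4.0.16, R 4.3.3), over genes whose counts in both libraries summed to 10 or more. P-values were Benjamini-Hochberg adjusted, with a threshold of 0.05. Alternatives were DESeq2 1.42.0 size factors, plain totals, totals without Mir378a, other filters and the column without strand. A further one was the edgeR exact negative binomial test with the common dispersion of both libraries. Simulated data served to test the binomial step. They held counting error only, without added spread between the libraries, so they cannot show how the test behaves under such spread. Intervals are Clopper-Pearson at 95% and, like the limit of 3 counts for a count of 0, leave out all but counting error, since PCR copies of a molecule are counted separately. Hairpins came from GENCODE M21 transcripts for all 2202 rows and were folded with RNAfold (ViennaRNA 2.7.2). RefSeq mature sequences matched 3 of 4 members.

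The members, the gene lists and the tests were chosen with earlier results of these data known. Genes named were the members, overlapping rows, hosts and rank neighbours, the highest opposite-strand pairs, and of the metabolic list the 6 highest and those that passed and had 100 or more counts in a library. Mir696 of that list was not analysed here.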

Additional observations from a re-analysis of the deposited data

How the results depend on the processing

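The choice of column and of denominator moved the family's values most. Without regard to strand, the Mir378a count and CPM were 0, its share of the family 0%, its mean rank 458, the family share of gene counts 0.0214%, and 0 members were lower in replicate 2, because Mir378a could not be tested. With both strands summed, reads of overlapping genes enter the total at both genes, which makes the denominator larger. Mir378a then had 115379 CPM and the family share was 11.6%. On all reads as denominator Mir378a had 29251 CPM, and on gene counts other than its own 168998 CPM; the family shares were 2.93% and 16.9%. Leaving out each library gave 139160 to 149905 CPM, family shares of 13.9 to 15.0%, Mir378a shares of the family of 99.887 to 99.892%, counts of 223560 to 282263 and rank 1 in both cases. Under the edgeR exact negative binomial test, 0 genes were higher and 0 lower among all genes, the metabolic list and the members, and 15 of all genes had an unadjusted p under 0.05. The log2 ratio of Mir378a was -0.10 to -0.13 under the other planned scalings and filters, and passed in each. With TMM factors from genes with at least 10 counts, an alternative chosen after seeing the data, it was -0.14 and 53 genes were higher and 68 lower, beside 62 and 58. No member's ratio changed sign under any alternative run, and Mir378b, Mir378c and Mir378d passed under none. No paired analysis was possible because the design has 1 group. Depth limits the members other than Mir378a, which had between 21 and 153 counts.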
